A study of Mus musculus with 2 samples.

Results

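The nuclear genes for the mitochondrial respiratory chain and the ATP synthase were compared between Bmi1 null and Bmi1 wild-type mouse embryonic fibroblasts (MEFs). Members were found by symbol, and comprised every gene whose symbol starts with Nduf, Uqcr or Atp5, the genes Sdha to Sdhd, and the Cox4 to Cox8 genes, wherever a probe set of the array was annotated to that gene alone. This gave 90 genes, of 18194 genes on the array, with 179 probe sets among them. For each gene the brightest probe set, by mean log2 signal of both arrays, was used. The mitochondrially encoded subunits were not analysed here. The null line lacked Bmi1, a subunit of the Polycomb complex that ubiquitylates histone H2A, and the wild-type line came from littermates. TBX2 had been expressed in both to immortalise them, both are labelled C57BL/6 and male, and both were grown untreated in DMEM with serum. There was 1 array per line, so each value below is a difference between 2 arrays with no replicate, no test and no p-value. Effects of genotype, line, culture, array and a possible difference in sex chromosomes cannot be told apart. Nor can fewer cells of a type and less RNA per cell in such bulk RNA.

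The respiratory chain passes electrons from NADH (through complex I) and from succinate (through complex II) to ubiquinone, then through complex III and cytochrome c to complex IV, which reduces oxygen. Complexes I, III and IV pump protons across the inner membrane, and complex V, the ATP synthase, uses the returning protons to make ATP. A few catalytic subunits are encoded in mitochondrial DNA and all others in the nucleus, so that every complex but complex II is assembled from products of both genomes. Several complex IV subunits exist as paralogues, with 1 form in most tissues and others known from muscle, lung or testis. Loss of Bmi1 in mice has been linked to altered mitochondrial function, which makes these genes of interest in this pair of lines.

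Signals were MAS5 intensities in arbitrary units on a linear scale, scaled so that the trimmed mean of each array was 500. Values below a floor of 100 were set to that floor, and a gene at or below it on both arrays was called not measured. Signals are compared between arrays for 1 probe set and never between genes. Bmi1 itself read 2146 in null and 9933 in wild-type cells at the probe set with the higher signal. A second Bmi1 probe set read 831 in null and 931 in wild-type cells, and the position of neither with respect to the deletion was examined. The Y-linked gene Eif2s3y read 23.3 in null and 1683 in wild-type cells, so the null array goes against its label male. All 12 fibroblast markers examined were above the floor on at least 1 array. The lines stood apart in these markers, with 4 past 2-fold on the higher side in null cells and 2 on the lower. Higher were Lum (729 in null and 68.0 in wild-type), Col3a1 (20209 in null and 4617 in wild-type), Col5a1 and Col1a1, and lower were Pdgfra (532 in null and 4952 in wild-type) and Thy1 (50.7 in null and 375 in wild-type).

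Respiratory chain genes differed little between the lines. Of the 90 members, 83 were above the floor on both arrays and 7 were at or below it on both. No member passed the floor on 1 array alone. The median log2 ratio of null over wild-type was 0.04 over the 83 measured members, against 0.006 over all 11766 measured genes. Values ran from −0.55 to 0.78, and 46 members were above 0 and 37 below. At least 1.5-fold higher signal in null cells was found for 1 member, Cox4i2, whereas 12.5% of all measured genes passed that fold. At least 1.5-fold lower signal was found for 0 members, against 12.0% of all measured genes. No member reached 2-fold, which 5.73% of measured genes did on the higher side and 5.16% on the lower.

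Most members are bright on these arrays, and bright signals are measured with less error. Of the 83 measured members, 70 had a signal of at least 2000 on their brighter array. None of these 70 passed 1.5-fold, against 12.0% higher and 12.0% lower among the 2842 genes with such a signal. At 2-fold the shares over those 2842 genes were 5.88% higher and 4.68% lower. The SD of the log2 ratio was 0.18 over the 70 bright members and 0.92 over the 2772 other genes with such a signal. For comparison, the spread between probe sets of 1 gene, the only measure of error here, was 0.20 for pairs of probe sets at 2000 or more (SD, 1712 pairs from 832 genes). Probe sets of members at that level agreed more closely, with a spread of 0.12 (SD, 61 pairs from 35 genes). Within 1.2-fold, a limit chosen after the values were seen, lay 68 of the 83 measured members (81.9%) and 45.5% of all other measured genes.

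**Figure D1:**
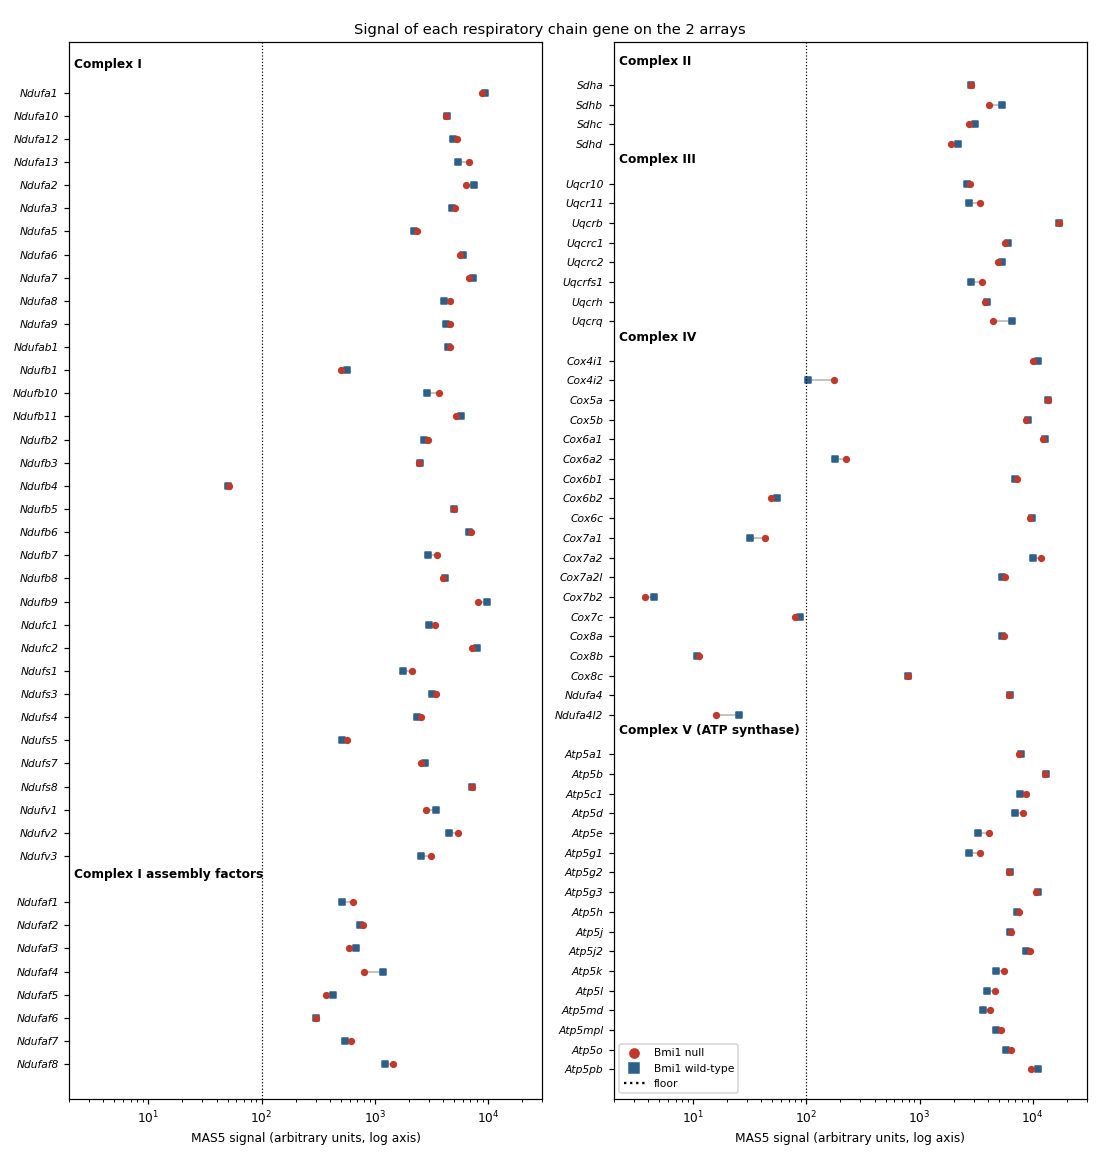
MAS5 signal (log axis, arbitrary units) of each of the 90 members on the Bmi1 null array (red circles) and the Bmi1 wild-type array (blue squares), by complex, with the floor of 100 as a dotted line. The circle and the square of most genes overlap or lie close together, while Cox4i2, Uqcrq and Ndufaf4 are among the most separated pairs above the floor, and 7 genes lie left of the floor.

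Complex I takes electrons from NADH at a flavin site and hands them along iron-sulfur clusters to ubiquinone. Of its 34 member genes, 33 were measured, with a median log2 ratio of 0.04 and a range of −0.27 to 0.36. None differed 1.5-fold. The 6 measured catalytic core genes went both ways, 3 above 0 and 3 below. Ndufv1, which carries the flavin, read 2863 in null and 3451 in wild-type cells, a log2 ratio of −0.27 that was the lowest of the complex. Its partner Ndufv2 read 5389 in null and 4555 in wild-type cells (log2 ratio 0.24). The largest core subunit, Ndufs1, read 2125 in null and 1794 in wild-type cells (log2 ratio 0.24). The other core genes lay closer to equality, with log2 ratios of 0.12 for Ndufs3, −0.13 for Ndufs7 and −0.02 for Ndufs8. At the probe sets used, the genes of the NADH-oxidising tip of the complex thus held both the lowest core ratio and the highest. Ndufv1 had other probe sets at 0.045 and −0.11, so its direction is not settled.

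Accessory subunits of complex I surround the core and are needed for its assembly or stability. Of 28 genes, 27 were measured, with a median log2 ratio of 0.04, 15 above 0 and 12 below. The highest ratio was that of Ndufb10, a subunit of the membrane arm, which read 3682 in null and 2870 in wild-type cells (1.28-fold higher). Ndufa13, also known as Grim19, read 6771 in null and 5402 in wild-type cells (1.25-fold higher). Ndufv3, attached to the flavin subunit, read 3125 in null and 2552 in wild-type cells (1.23-fold higher). On the other side were Ndufa2, with 6381 in null and 7548 in wild-type cells, and Ndufb9, with 8220 in null and 9724 in wild-type cells, both 1.18-fold lower. Ndufa13 and Ndufa2 each had a single probe set, with the suffix _s_at, which can also match other transcripts. Both X-linked members, Ndufa1 and Ndufb11, had log2 ratios of −0.077 and −0.16 at the probe sets used. Ndufb11 had other probe sets at 0.08 and −0.25, so its direction is not settled. A part of sex chromosomes in these ratios was not tested. Ndufb4 was represented by a probe set at 52.0 in null and 50.9 in wild-type cells and was not measured.

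The 8 Ndufaf genes encode assembly factors that help build complex I and are not part of the finished enzyme. All were measured, with a median log2 ratio of 0.04 and a wider range than the complex I subunits, from −0.55 to 0.32. None had a signal of 2000, and for pairs of probe sets at 500 to 2000 the spread within a gene was 0.28 (SD, 2200 pairs). Ndufaf4 read 810 in null and 1189 in wild-type cells, 1.47-fold lower and the lowest ratio of all members. Its second probe set gave nearly the same ratio, −0.54 against −0.55, with 604 in null and 877 in wild-type cells. At the other end, Ndufaf1 read 648 in null and 517 in wild-type cells (1.25-fold higher) and Ndufaf8 1458 in null and 1238 in wild-type cells (1.18-fold higher). Ndufaf3 and Ndufaf5 both had a log2 ratio of −0.20, and Ndufaf7 0.18. The ratios of Ndufaf2 (0.074) and Ndufaf6 (0.011) were nearest to 0.

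Complex II, succinate dehydrogenase, is the enzyme shared by the citric acid cycle and the chain, and all of its subunits are nuclear. Of its 4 genes, 3 were lower in null cells and the median log2 ratio was −0.18, the lowest of the complexes. Sdhb, the iron-sulfur subunit, read 4096 in null and 5393 in wild-type cells (1.32-fold lower), at its single probe set. Sdhd, a membrane anchor, read 1905 in null and 2197 in wild-type cells (log2 ratio −0.21), but its second probe set gave 0.12, with 1368 in null and 1263 in wild-type cells. The other anchor, Sdhc, read 2749 in null and 3059 in wild-type cells (log2 ratio −0.15), and the flavoprotein Sdha 2862 in null and 2831 in wild-type cells (0.016). The median was −0.07 with the mean of all probe sets of each gene.

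Complex III oxidises ubiquinol and reduces cytochrome c. Its 8 genes had a median log2 ratio of −0.04, and the largest SD of the complexes (0.28). The Rieske iron-sulfur protein Uqcrfs1, its nuclear-encoded redox subunit among the members, read 3591 in null and 2822 in wild-type cells (1.27-fold higher). Uqcr11, a small accessory subunit, read 3416 in null and 2716 in wild-type cells (1.26-fold higher). Uqcrq, a subunit next to cytochrome b, read 4460 in null and 6528 in wild-type cells, 1.46-fold lower. That value comes from a probe set with the suffix _s_at, which can also match other transcripts, and a second one above the floor on both arrays, at 166 in null and 187 in wild-type cells, gave a log2 ratio of −0.17. The core proteins Uqcrc1 and Uqcrc2, which form the matrix side, had log2 ratios of −0.069 and −0.11. Uqcrb (−0.013), Uqcrh (−0.067) and Uqcr10 (0.084) were close to equality. Without suffixed probe sets 5 genes of the complex remained and the median was 0.16.

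Complex IV, cytochrome c oxidase, has a catalytic core of mitochondrially encoded subunits, which were not analysed here, within a shell of nuclear subunits. The 9 measured subunits of the form found in most tissues had an SD of 0.11 and log2 ratios from −0.13 to 0.24. Cox4i1, the largest nuclear subunit, read 10119 in null and 11075 in wild-type cells (1.09-fold lower). Cox5a read 13631 in null and 13687 in wild-type cells, a log2 ratio of −0.0059, and Cox6a1 12336 in null and 12828 in wild-type cells (−0.056). Cox7a2 had the highest ratio of the group, with 11834 in null and 10016 in wild-type cells (1.18-fold higher), and its second probe set gave 0.19. Cox5b, Cox6c, Cox6b1 and Cox8a lay between −0.067 and 0.086, and so did Ndufa4 (−0.023), a subunit first assigned to complex I and now to complex IV. Cox7c was not measured, at 78.8 in null and 88.5 in wild-type cells.

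Tissue-specific paralogues of complex IV were examined next, since each is known from a particular tissue. Cox4i2, the form known from lung and induced by low oxygen, read 177 in null and 103 in wild-type cells, 1.71-fold higher (log2 ratio 0.78). It was the only member past 1.5-fold, its wild-type signal was just above the floor, and it had 1 probe set. When a pseudocount replaced the floor, its log2 ratio was 0.45. Cox6a2, the heart and skeletal muscle form, read 225 in null and 178 in wild-type cells (1.27-fold higher), and its second probe set was below the floor at 43 in null and 20 in wild-type cells. For probe sets at 100 to 500 the spread within a gene was 0.33 (SD, 1775 pairs), so the Cox6a2 ratio of 0.34 was about as large as that spread and the Cox4i2 ratio was larger than it. The muscle forms Cox7a1 (43.4 in null and 31.4 in wild-type) and Cox8b (11.3 in null and 10.7 in wild-type) were not measured. Nor were the testis forms Cox6b2 (49.1 in null and 55.0 in wild-type) and Cox7b2 (3.72 in null and 4.47 in wild-type), nor Ndufa4l2, the hypoxia-induced relative of Ndufa4 (16.0 in null and 25.4 in wild-type). The testis form Cox8c read 791 in null and 786 in wild-type cells at one probe set and 103 in null and 361 in wild-type cells at the other, log2 ratios of 0.0099 and −1.80. Its direction is therefore not settled by these arrays. Cox7a2l, a relative of Cox7a2 that links complexes III and IV, read 5641 in null and 5315 in wild-type cells (log2 ratio 0.086).

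Markers of muscle, male germ cells and brown fat were examined, and most were below the floor. No lung markers were examined. Of 13 skeletal muscle markers 4 were above it on at least 1 array, with a summed signal of 895 in null and 1113 in wild-type cells, and Myod1, Myog and Myf5 were below it on both. Acta1, a muscle actin, read 237 in null and 514 in wild-type cells, and Ckm, muscle creatine kinase, 124 in null and 204 in wild-type cells. Des and Casq1 went the other way, with 213 and 120 in null cells and 170 and 72.2 in wild-type cells. Of 10 cardiac markers 3 were above it, with a sum of 1428 in null and 2530 in wild-type cells, and Myh6, Myh7 and Nppa were below it on both. Tnnt2, a troponin, read 894 in null and 1531 in wild-type cells, and Nppb, a natriuretic peptide, 189 in null and 700 in wild-type cells (3.71-fold lower). Actc1, a cardiac actin, went the other way, with 135 in null cells and 94.6, below the floor, in wild-type cells. Of 12 male germ cell markers 1 was above it, and Ddx4 and Dazl were below it on both. The 1 above it was Prm1, a sperm protamine, with 157 in null and 57.8 in wild-type cells at a probe set above the floor in null cells, while no further Prm1 probe set reached the floor. The germ cell sum of 475 in null and 278 in wild-type cells was otherwise made of signals below the floor. Brown adipocyte markers, included because such cells are rich in mitochondria, had 2 of the 8 on the array above the floor, with Ucp1 and Cidea below it on both. Their sum of 459 in null and 2963 in wild-type cells rested on Dio2 (123 in null and 2661 in wild-type). The part of other cell types in the paralogue signals was not tested.

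Cox6a2, Cox8b, Ndufv3 and Ndufa8 are named in the study's list of promoters that carry ubiquitylated H2A (uH2A) in a Bmi1-dependent peak. That list was made by ChIP-seq in these lines, not from expression. The share of all genes on it was not counted here, so being on it is not read as a trait of the members. Signals were higher in null cells for the 3 measured genes of the list, Cox6a2 and Ndufv3 as given above and Ndufa8, a complex I accessory subunit, with 4615 in null and 4061 in wild-type cells (1.14-fold higher). Of all 11766 measured genes 5952 were above 0, and the ratios of Ndufa8 (0.18) and Cox6a2 (0.34) were no larger than about the spread between probe sets of 1 gene at their signals. That of Ndufv3 (0.29), at its single probe set, was larger than the spread of 0.20 at its signal. None reached 1.5-fold, and Cox8b stayed below the floor on both arrays. Promoter sequences of Cox8b, Ndufv3 and Ndufa8 are shown because the list points to their promoters. Others named above are shown with them, among them forms found in most tissues to set beside a muscle form. No promoter of Cox6a2 was found in the RefSeq table. The place of the peaks within these sequences was not examined. They run from 250 bases before to 50 after the RefSeq start in build GRCm38.p6, and capitals mark matches on either strand to GCATGCGC, a core of the NRF1 site, CCGGAAG, an ETS site of the kind bound by GABP, or AAGATGGC, a YY1 site, overlapping matches running together. Cox8b lies at chr7:140900397-140900696 on the minus strand, Cox8a at chr19:7217567-7217866 on the minus strand and Cox6a1 at chr5:115348909-115349208 on the minus strand. Ndufv3 lies at chr17:31519865-31520164 on the plus strand, Ndufa8 at chr2:36049289-36049588 on the minus strand and Ndufaf4, the member with the lowest ratio, at chr4:24897833-24898132 on the plus strand.
Cox8b: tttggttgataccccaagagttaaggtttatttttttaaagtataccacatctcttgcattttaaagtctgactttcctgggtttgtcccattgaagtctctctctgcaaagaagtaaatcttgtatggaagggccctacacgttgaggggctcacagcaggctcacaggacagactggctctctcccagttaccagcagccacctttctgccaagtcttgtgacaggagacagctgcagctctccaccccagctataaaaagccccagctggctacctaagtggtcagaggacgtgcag
Cox8a: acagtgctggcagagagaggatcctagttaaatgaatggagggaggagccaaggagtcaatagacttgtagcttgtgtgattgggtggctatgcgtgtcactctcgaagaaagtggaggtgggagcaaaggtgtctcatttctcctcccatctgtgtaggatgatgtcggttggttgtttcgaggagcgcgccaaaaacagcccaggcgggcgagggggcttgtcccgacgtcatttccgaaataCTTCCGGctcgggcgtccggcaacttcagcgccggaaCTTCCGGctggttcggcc
Cox6a1: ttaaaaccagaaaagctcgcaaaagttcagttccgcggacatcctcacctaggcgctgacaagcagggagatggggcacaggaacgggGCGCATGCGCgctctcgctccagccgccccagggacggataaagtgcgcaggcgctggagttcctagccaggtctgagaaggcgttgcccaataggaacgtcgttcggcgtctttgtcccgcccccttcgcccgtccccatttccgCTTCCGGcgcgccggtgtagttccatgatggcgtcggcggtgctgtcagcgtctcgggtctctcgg
Ndufv3: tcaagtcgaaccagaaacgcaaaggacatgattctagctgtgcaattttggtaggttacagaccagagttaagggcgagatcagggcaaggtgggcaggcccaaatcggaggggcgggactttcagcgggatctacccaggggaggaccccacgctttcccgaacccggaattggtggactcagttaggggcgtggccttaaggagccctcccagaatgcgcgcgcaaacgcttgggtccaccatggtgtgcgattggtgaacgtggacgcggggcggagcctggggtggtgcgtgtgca
Ndufa8: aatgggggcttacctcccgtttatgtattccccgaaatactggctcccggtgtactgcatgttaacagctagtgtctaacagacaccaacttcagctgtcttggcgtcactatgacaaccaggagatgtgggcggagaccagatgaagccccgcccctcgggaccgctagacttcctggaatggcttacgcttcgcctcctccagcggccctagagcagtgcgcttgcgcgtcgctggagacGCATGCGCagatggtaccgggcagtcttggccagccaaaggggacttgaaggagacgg
Ndufaf4: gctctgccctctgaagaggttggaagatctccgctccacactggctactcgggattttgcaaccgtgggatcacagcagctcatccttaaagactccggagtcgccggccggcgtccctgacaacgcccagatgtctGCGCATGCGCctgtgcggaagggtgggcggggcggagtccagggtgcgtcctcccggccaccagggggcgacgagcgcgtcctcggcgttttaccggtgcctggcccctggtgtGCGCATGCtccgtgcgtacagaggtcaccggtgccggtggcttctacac

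The promoter of Cox8b held 2 CpG dinucleotides and no capital, whereas those of Cox8a and Cox6a1 held 19 and 32 CpG and ETS matches, with an NRF1 core as well in Cox6a1. Ndufa8 and Ndufaf4 also held the NRF1 core, and Ndufv3 held none of these letters. Among other complex IV subunits found in most tissues, Cox5a, Cox5b, Cox7a2, Cox7c and Ndufa4 also held none, while Cox6b1 held an ETS match. Lack of a match thus does not set Cox8b or the other tissue-specific paralogues apart. NRF1 and GABP are known regulators of nuclear genes for the respiratory chain. A promoter was found in the RefSeq table for 74 of the 90 members. The NRF1 core was in 11 of them (14.9%), against 3.60% of 17491 promoters of protein-coding genes of the same length. The ETS letters were in 18 (24.3%), against 11.9%, and the YY1 letters in 9 (12.2%), against 3.22%. The median number of CpG per promoter was 20 in the members and 13 in protein-coding genes. Among the tissue-specific paralogues, 4 had a promoter in the table (Cox6b2, Cox7a1, Cox7b2 and Cox8b), with 2 to 10 CpG each and 0 matches to any of the motifs. A match describes the sequence only, and the absence of one says nothing of whether a factor binds.

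Complex V had the highest median of the complexes, 0.15 on the log2 scale, with 12 of its 17 genes above 0. All 17 were measured and the range was −0.21 to 0.35. Of the 5 genes of the catalytic F1 head, the ones for the stalk inside the head were on the higher side. Atp5e, its epsilon subunit, read 4135 in null and 3254 in wild-type cells (1.27-fold higher), Atp5d 8117 in null and 6922 in wild-type cells (1.17-fold higher) and Atp5c1 8733 in null and 7672 in wild-type cells (1.14-fold higher). The alpha and beta subunits, which form the catalytic sites, were near equality, Atp5a1 with 7629 in null and 7808 in wild-type cells and Atp5b with 12696 in null and 13128 in wild-type cells. The small membrane subunits were above 0, all 5 lying between 0.10 and 0.24 on the log2 scale at the probe sets used. Atp5j2, the lowest of them, had other probe sets at 0.028 and −0.24, so its direction is not settled. Among them were Atp5l, with 4618 in null and 3905 in wild-type cells, Atp5k, with 5573 in null and 4729 in wild-type cells, and Atp5md, with 4186 in null and 3602 in wild-type cells. The lowest ratio was that of Atp5pb, a subunit of the outer stalk, which read 9688 in null and 11213 in wild-type cells (1.16-fold lower). A second Atp5pb probe set, with 4295 in null and 5517 in wild-type cells, gave a log2 ratio of −0.36. At the probe sets used, each of these differences was near or below the 0.20 spread between probe sets of 1 gene, apart from that of Atp5e. The single probe set of Atp5e has the suffix _s_at, which can also match other transcripts. Without suffixed probe sets, which left 12 measured genes, the median of the complex was −0.0016.

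The ring of c subunits, which turns as protons pass, is encoded by 3 genes whose mature proteins are the same and whose import signals differ. Atp5g1 read 3430 in null and 2738 in wild-type cells, 1.25-fold higher. Atp5g2 read 6190 in null and 6327 in wild-type cells (log2 ratio −0.03), and Atp5g3 10645 in null and 11172 in wild-type cells (−0.07). The gene pair Atp5g2 and Atp5g3 thus stood near equality and Atp5g1 somewhat above it.

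**Figure D2:**
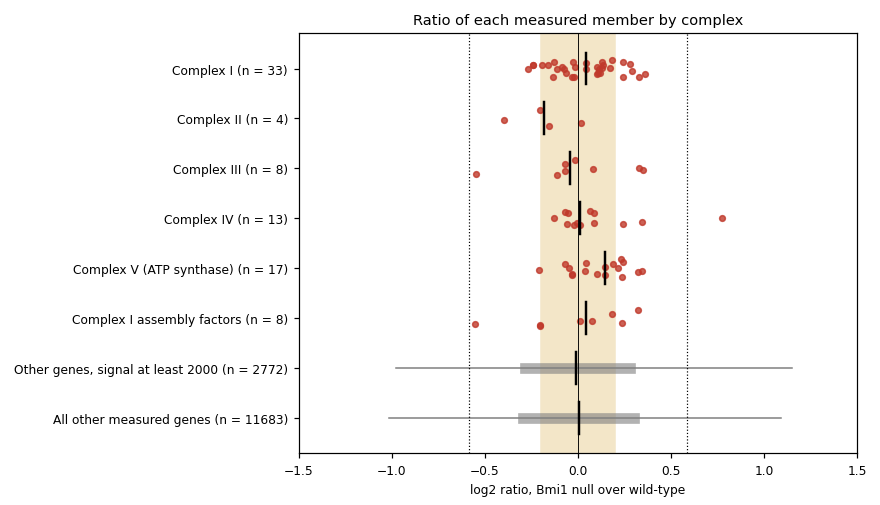
Log2 ratio of Bmi1 null over wild-type for each measured member (red points) by complex, with black bars for medians. For other genes the grey bars span the middle 50% and the lines the 5th to 95th percentile. The shaded band is 0.20 on each side of 0, the spread between bright probe sets of 1 gene, and dotted lines mark 1.5-fold. The medians run from −0.18 for complex II to 0.15 for complex V, and 1 member, Cox4i2 of complex IV, lies outside the dotted lines.

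Agreement between probe sets was examined within the members. Above the floor on both arrays were several probe sets each of 47 members, of which 28 had the same sign at all of them and 19 did not. The median range within a gene was 0.15 on the log2 scale, and 42 of the 47 ranges were under 0.5. Most of the larger disagreements involved a dim probe set. Ndufs8, a core iron-sulfur subunit, had 5 probe sets between −0.09 and 0.03 and another at 280 in null and 524 in wild-type cells with −0.91. Ndufa10 gave −0.03 at its bright probe set and 0.62 at another, which read 189 in null and 124 in wild-type cells. Uqcr10 gave 0.08 and, at 180 in null and 248 in wild-type cells, −0.46. Ndufv2 was above 0 at all of its probe sets, from 0.24 to 0.92. The highest of these read 3471 in null and 1835 in wild-type cells and would by itself have passed 1.5-fold.

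**Figure D3:**
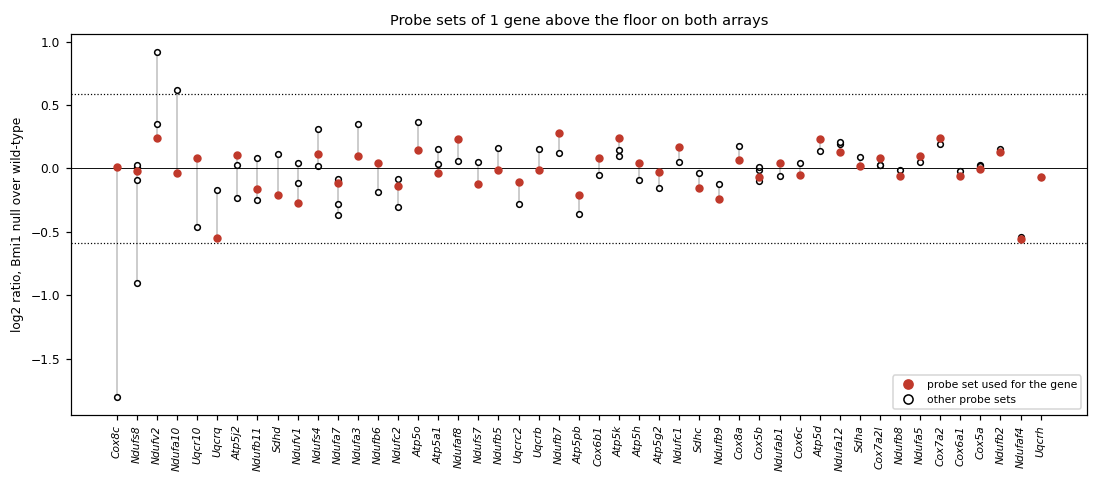
Log2 ratio of Bmi1 null over wild-type for the probe sets of 47 members, those with several probe sets whose signals exceeded the floor in both lines, ordered by their range. Red points are the probe sets used for the genes, open points are the others, and dotted lines mark 1.5-fold. The range is widest for Cox8c, from −1.80 to 0.0099, and under 0.5 for 42 genes.

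Some other genes of mitochondrial energy metabolism, though not some in every list, showed larger single differences than any member did. Assembly factors of complex IV, which insert its copper and heme, had 22 measured of 26 listed, with a median log2 ratio of 0.06 and an SD of 0.49. Past 1.5-fold were 2 on the higher side and another 2 on the lower, against 12.5% and 12.0% of all measured genes. Only 6 of these 22 genes had a signal of at least 2000 on their brighter array, against 70 of the 83 measured members. The spread between probe sets of 1 gene was wider at lower signals. Cox15, an enzyme of heme A synthesis, read 1281 in null and 632 in wild-type cells (2.03-fold higher), while its other probe sets had log2 ratios of 0.58, 0.48 and 0.0039. Cox20, a chaperone of a mitochondrially encoded subunit, read 2658 in null and 1488 in wild-type cells (1.79-fold higher). The copper chaperone Sco2 read 641 in null and 1256 in wild-type cells (1.96-fold lower), and Coa7 464 in null and 897 in wild-type cells (1.93-fold lower). Of 9 measured assembly factors of complex I outside the Ndufaf genes, 1 was at least 1.5-fold higher, the iron-sulfur carrier Nubpl, with 1309 in null and 801 in wild-type cells (1.64-fold). Assembly factors of complex II (4 measured, median 0.21), III (5 measured, median 0.12) and V (4 measured, median −0.049) held 0 genes past 1.5-fold.

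Of 13 measured genes listed as electron carriers and inner membrane transporters, 2 passed 1.5-fold on the higher side, of which 1, Aox1, is not mitochondrial. None of the 13 passed it on the lower side, and the median was 0.04. Aifm1, a flavoprotein that supports assembly of the chain, read 2326 in null and 1359 in wild-type cells (1.71-fold higher). Aox1, a cytosolic aldehyde oxidase, read 451 in null and 129 in wild-type cells (3.51-fold higher). Cytochrome c itself, Cycs, read 13786 in null and 14154 in wild-type cells, and Cyc1 of complex III 5471 in null and 6216 in wild-type cells (1.14-fold lower). Of 17 measured genes of the citric acid cycle and pyruvate dehydrogenase, 1 was at least 1.5-fold lower, Dlat, with 1715 in null and 2633 in wild-type cells (1.54-fold), and 0 were higher (median 0.05). Both other Dlat probe sets gave lower ratios still, −0.80 and −0.94.

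Regulators of mitochondrial biogenesis and genes of protein import had medians below 0. The spread between probe sets of 1 gene describes a single ratio and not the error of such a median, and these medians were not tested. Of all 11766 measured genes 5814 were below 0. Of 21 measured regulators, 14 were below 0 and 7 above, with a median of −0.19, and 2 were at least 1.5-fold lower and 0 higher. Sirt1, a deacetylase, read 735 in null and 1393 in wild-type cells (1.90-fold lower), and Myc 1593 in null and 2860 in wild-type cells (1.80-fold lower). The factors Nrf1 (275 in null and 262 in wild-type) and Tfam (1489 in null and 1673 in wild-type) differed less, and the coactivator Ppargc1a was below the floor on both arrays. Of 13 outer membrane and import genes, 10 were below 0 (median −0.16), with 2 at least 1.5-fold lower and 0 higher. The chaperonin Hspe1 read 5409 in null and 8269 in wild-type cells (1.53-fold lower) and the translocase subunit Timm50 736 in null and 1111 in wild-type cells (1.51-fold lower). The import motor Hspa9 read 9990 in null and 14130 in wild-type cells (1.41-fold lower). For comparison with these lists, the share of all measured genes past 1.5-fold was 12.5% on the higher and 12.0% on the lower side.

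**Figure D4:**
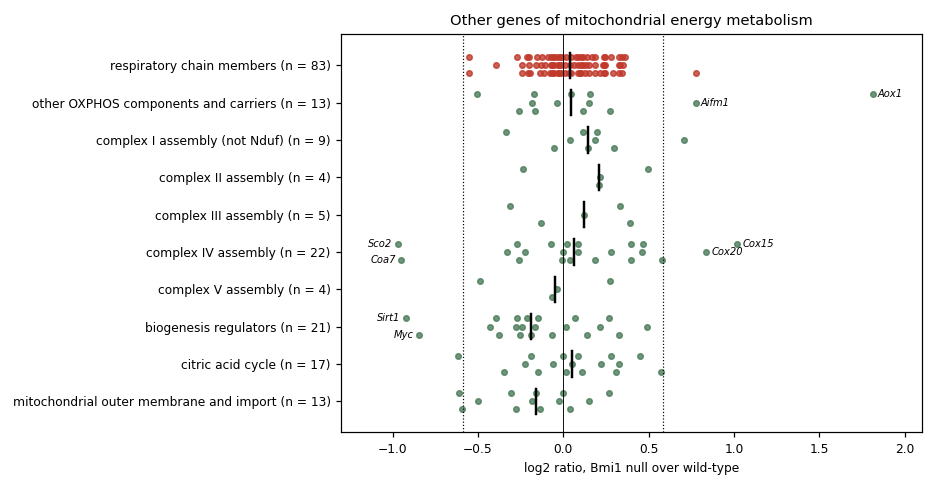
Log2 ratio of Bmi1 null over wild-type for each measured gene of the respiratory chain members (red) and of lists of other genes (green), all mitochondrial or regulators of mitochondria except the cytosolic Aox1, with black bars for medians and dotted lines at 1.5-fold. Members cluster around their median of 0.04, while Aox1, Aifm1, Cox15, Cox20, Sco2, Coa7, Sirt1 and Myc are labelled for a log2 ratio of 0.75 or more in size.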

How the data were processed

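RNA of 1 Bmi1 null and 1 wild-type MEF line was hybridised to Affymetrix Mouse Genome 430 2.0 arrays. The deposited values are intensities on a linear scale, 1 per probe set, which the authors made with MAS5 of Microarray Suite 5.0. They were scaled to a trimmed mean (2% removed at each end) of 500 on both arrays, so a shift shared by most transcripts would be lost. Scaling settings of the arrays are not given in the sources used here, and detection calls were not used. The study mapped its uH2A peaks to build mm8. Its list was used by gene symbol alone, and promoters were read from GRCm38.p6. The number of arrays limits the precision.

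Of 45101 probe sets, 34958 named 1 gene, 932 several and 9211 none in the platform annotation. Probe sets with several genes were left out, and all 90 member symbols were unchanged in the RefSeq table of GRCm38.p6. Signals were floored at 0.2 times the trimmed mean before log2. A list was described by its counts and median beside those of all measured genes. Error was described by the SD of log2 ratio differences between probe sets of 1 gene, divided by the square root of 2. This leaves out error between cultures and arrays.

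Named genes were paralogue family members, members on the uH2A list, members past 1.5-fold, the 3 highest and 3 lowest ratios and the brightest gene of each complex, members with discordant probe sets, and genes of the other lists past 1.5-fold, at most 3 each way. Others are named to complete a complex or to show a marker, and were chosen after their values were seen. Members and lists were chosen with earlier results of these data known. Calculations were checked on simulated data and run in Python 3.11.15 with pandas 2.3.3 and scipy 1.17.1. Alternatives changed the floor, the choice of probe set or the scaling.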

Additional observations from a re-analysis of the deposited data

How the results depend on the processing

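The count of members at least 1.5-fold higher was 0 when a pseudocount replaced the floor and 0 when the floor was raised to 0.4 times the trimmed mean, at which Cox4i2 was not measured. The count at least 1.5-fold lower was 1 without a floor (Ndufa4l2, log2 ratio −0.66, which never reached the floor) and 1 with the mean of probe sets (Cox8c, log2 ratio −0.90). Without suffixed probe sets, which left 60 measured members, the median log2 ratio was −0.011 for complex I, 0.16 for complex III and −0.0016 for complex V; why these medians differed was not tested. The median of all members stayed between 0.011 and 0.052 in all alternatives run, and that of complex II between −0.21 and −0.07. Median centring and quantile normalization moved no median or count past the limits used. Of the ratios of single genes, those of Cox4i2 (0.45 with a pseudocount), Cox8c, Ndufa10 (0.29 with the mean of probe sets) and Uqcrq (−0.20 with that mean, −0.17 without suffixed probe sets) moved by more than the 0.30 spread between probe sets. No paired analysis was possible because each group had 1 array, and no array could be left out. With 1 array per line, probe set error is the only error these data can give.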
